A study of Rattus norvegicus with 18 samples.

Results

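The 10 genes described here were Htra1, Cldn10_predicted, Ndrg2, S100b, Add3, Abhd1, Edg2, Bhlhb3, Fgfr3 and Dgka, which were chosen because their signals were much lower at day 12 in rat neuron cultures given CHD5 shRNA than in control cultures. They were found by their symbols in the deposited table, and of several probes for a gene the probe with the highest mean signal was taken. They are 10 of the genes behind 22523 probes, of which the 11079 detected on any array were kept. The names are those of the array's design. By their gene identifiers, Edg2 is now called Lpar1, Bhlhb3 is Bhlhe41 and Cldn10_predicted is Cldn10. The day 12 values chose the genes, so they are given below as a description with no test, and the tests concern days 5 and 9.

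CHD5 is a chromatin remodeling ATPase of neurons. Primary cortical neurons from embryonic rats received, on the day after plating, medium with a pLKO.1 lentivirus for 6 hours. The virus carried either a shRNA against CHD5 or the scramble control shRNA, and the study names a single CHD5 construct for the arrays. RNA was harvested at day 5, day 9 or day 12, with 3 replicates per group, labelled a, b and c, on 18 Illumina rat arrays. All cultures, controls included, were infected, and the arrays hold no uninfected group. The labels do not say whether replicates were separate preparations of neurons, so p-values measure the spread between these samples, which may be technical.

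Glia in such cultures are mostly astrocytes, which appear after the neurons in cortical development and take up transmitter, buffer ions and supply lipids to neurons. Several of the 10 genes are known from astrocytes. S100b encodes a calcium-binding protein widely used as an astrocyte marker, Ndrg2 and Htra1 are enriched in astrocytes, and Fgfr3 is a growth factor receptor of glial precursors and astrocytes. For Cldn10_predicted, Add3, Abhd1, Edg2, Bhlhb3 and Dgka no such use as a marker is stated here. All 10 were chosen for their day 12 values, so a course shared with the others is no support for calling them glial. These are measurements on whole cultures, so fewer cells of a type and less RNA per cell cannot be told apart.

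Because the 10 genes moved together, the 250 bases before their RefSeq starts (rat build GRCr8) were searched on both strands for letters bound by factors of glial genes. A window was found for 9 of the genes, and there was none for Edg2. The palindrome of nuclear factor I, TTGGC and GCCAA with any 5 bases between them, was in 0 of the 9 and in 0.0359% of all 33469 windows. The shorter site TTGGCA, which lies inside the palindrome only where the next letter is A, was in 2 of the 9, Abhd1 and S100b, and in 12% of all windows. The E-box CACGTG was in 1, Bhlhb3, and in 5.59% of all windows. ACAATG, bound by SOX factors, was in 0 of the 9 and in 11.1% of all, and TTCNNNGAA, bound by STAT factors, was in 0 of the 9 and in 7.67% of all. No motif was shared by more than 2 of the genes in these windows. The windows of Htra1, which had the lowest day 12 difference of all kept probes, and of S100b and Bhlhb3, which hold TTGGCA and CACGTG, are printed to show these letters, 5′ to 3′ in the direction of the gene, with matches in capitals.
Htra1, chr1:194927819-194928068, plus strand: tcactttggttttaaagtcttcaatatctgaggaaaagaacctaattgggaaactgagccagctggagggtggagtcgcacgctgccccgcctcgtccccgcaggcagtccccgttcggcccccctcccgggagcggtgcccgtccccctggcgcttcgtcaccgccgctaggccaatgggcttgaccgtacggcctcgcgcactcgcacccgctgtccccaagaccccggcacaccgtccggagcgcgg
S100b, chr20:12381082-12381331, minus strand: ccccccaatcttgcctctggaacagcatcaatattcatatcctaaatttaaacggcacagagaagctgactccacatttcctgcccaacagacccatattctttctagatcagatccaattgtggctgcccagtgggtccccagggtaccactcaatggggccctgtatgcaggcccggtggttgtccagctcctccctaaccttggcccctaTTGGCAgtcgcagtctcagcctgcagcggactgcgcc
Bhlhb3 (Bhlhe41), chr4:180569356-180569605, minus strand: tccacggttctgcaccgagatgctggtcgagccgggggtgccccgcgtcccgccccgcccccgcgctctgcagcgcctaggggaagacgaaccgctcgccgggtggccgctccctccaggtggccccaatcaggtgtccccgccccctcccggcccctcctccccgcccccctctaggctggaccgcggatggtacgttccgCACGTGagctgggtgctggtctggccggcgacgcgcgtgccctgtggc
The Htra1 window held none of the letters searched, which says nothing of what binds there.

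The log2 signals of each array were put on a common scale (normalised log2 signal), and CHD5 shRNA was compared with control within a day by limma with all 6 groups in 1 fit. A gene was called changed when the Benjamini-Hochberg adjusted p over all 11079 probes was under 0.05. The control array of replicate b at day 9 stood apart. Its mean signal was 135 against 400.2 to 789 on the other arrays, 7047 of its probes were detected against 8360 to 9931, and the SD of its log2 signals was 1.11 against 1.72 to 2.02. Day 9 differences of the 10 genes are therefore given with and without it, and calls in other genes where they differ without it. No probe is annotated to Chd5, so its depletion could not be checked on these arrays. The study reported less CHD5 protein on immunoblots of neurons given its shRNAs, and less CHD5 mRNA with the knockdown, the latter without showing data. When the 6 replicate a samples were measured again, the values of the 10 genes differed between runs by a median of 0.062 and at most 0.22 on the log2 scale.

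**Figure D1:**
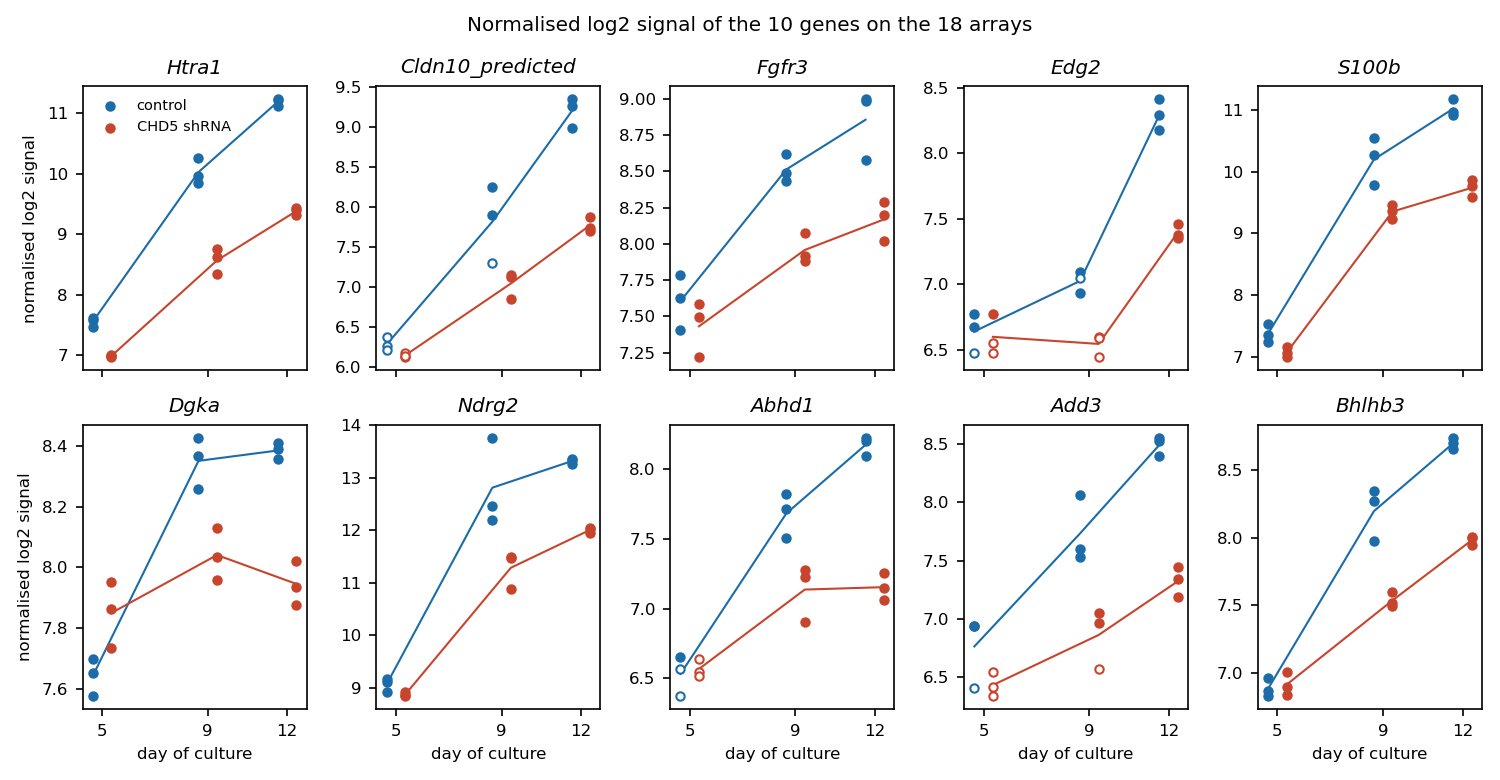
Normalised log2 signal (vertical axis, a separate scale in each panel) of the 10 genes against day of culture, with 1 point per array, lines through group means, blue for control and red for CHD5 shRNA. Open points are arrays on which the probe was not detected (detection p above 0.02). At days 9 and 12 every control point lies above every CHD5 shRNA point of the same day in all 10 panels.

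Htra1 encodes a secreted serine protease that cleaves matrix proteins. At day 5 its control arrays (a, b and c in that order, as throughout) read 7.58, 7.47 and 7.62, at day 9 they read 9.96, 9.86 and 10.27, and by day 12 they had reached 11.24, 11.22 and 11.11. With CHD5 shRNA the values of these days were 6.97, 7.0 and 6.99, then 8.62, 8.75 and 8.34, then 9.33, 9.40 and 9.43. The groups did not overlap on any day. The difference was -0.57 at day 5 (SE 0.11, limma adjusted p 0.0517), just short of a call, and -1.46 at day 9 (SE 0.11, adjusted p 1.19e-06), where the level was 36.4% of control. Without the dim day 9 array, the day 5 difference of -0.58 passed (adjusted p 0.00405), and it also passed without either of the other control arrays of day 9 or without CHD5 shRNA replicate b or c of that day (adjusted p 0.0276 to 0.0476). At day 12 the level was 28.6% of control, a difference of -1.81.

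Cldn10_predicted encodes claudin 10, a tight junction protein that forms channels for ions. Its probe was not detected on any of the 6 day 5 arrays, which read 6.37, 6.26 and 6.21 in control and 6.18, 6.12 and 6.14 with CHD5 shRNA, so no difference is given for that day. By day 9 the control arrays read 8.25, 7.30 and 7.90 and the CHD5 shRNA arrays 7.13, 7.15 and 6.85. These do not overlap, although the lowest control value, from the dim array, was not above background. The day 9 difference was -0.77 (SE 0.17, adjusted p 0.0133), or -1.05 without that array (adjusted p 2.65e-05). At day 12 it read 9.35, 8.98 and 9.26 in control and 7.88, 7.70 and 7.74 with CHD5 shRNA, which is 37.3% of control.

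Both membrane receptors, Fgfr3 for fibroblast growth factors and Edg2 (Lpar1) for lysophosphatidic acid, were below control at day 9 but had different courses. Fgfr3 read 7.63, 7.41 and 7.79 in control and 7.50, 7.22 and 7.58 with CHD5 shRNA at day 5, with overlap. It read 8.62, 8.44 and 8.49 against 7.92, 8.08 and 7.88 at day 9, a difference of -0.55 (SE 0.13, adjusted p 0.0205). At day 12 the values were 9.00, 8.99 and 8.58 against 8.20, 8.29 and 8.02. Edg2 was close to background until late. It read 6.67, 6.77 and 6.48 in control and 6.48, 6.77 and 6.55 with CHD5 shRNA at day 5, and 6.94, 7.05 and 7.09 against 6.60, 6.59 and 6.44 at day 9. The day 9 groups did not overlap (adjusted p 0.0132, or 0.00799 without the dim array), but none of the 3 CHD5 shRNA arrays detected the probe and 2 of the control arrays did. The control level was therefore at least 1.17-fold higher, a bound against the dimmest detected signals of those arrays. Only at day 12 was Edg2 detected on all 6 arrays of a day, with 8.29, 8.42 and 8.18 in control and 7.36, 7.37 and 7.46 with CHD5 shRNA, or 53.7% of control.

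Of the genes for signalling inside the cell, S100b and Dgka, the first was lower on every day and the other changed sides. S100b, the calcium-binding protein, read 7.25, 7.35 and 7.54 in control and 7.16, 6.99 and 7.07 with CHD5 shRNA at day 5. These groups were separate, with a difference of -0.31 that did not pass (SE 0.15, adjusted p 0.884). It read 9.79, 10.55 and 10.26 against 9.36, 9.46 and 9.24 at day 9 (difference -0.84, SE 0.15, adjusted p 0.00355), and 11.18, 10.92 and 10.96 against 9.59, 9.77 and 9.86 at day 12. The last is 41.1% of control. Dgka encodes diacylglycerol kinase alpha, which turns diacylglycerol into phosphatidic acid. At day 5 it read 7.65, 7.58 and 7.70 in control and 7.95, 7.74 and 7.86 with CHD5 shRNA. Every CHD5 shRNA array was thus the higher, by a mean of 0.21 that did not pass (SE 0.09, adjusted p 0.769). At day 9 the order was the opposite, with 8.37, 8.43 and 8.26 in control and 8.13, 8.04 and 7.96 with CHD5 shRNA, a difference of -0.31 (SE 0.09, adjusted p 0.0469). It was the smallest day 9 difference of the 10, and it missed the limit without the dim array (-0.28, adjusted p 0.0515). At day 12 it read 8.36, 8.39 and 8.41 against 8.02, 7.88 and 7.94.

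Ndrg2 and Abhd1 both belong to the alpha/beta hydrolase fold proteins, and Ndrg2 has no known hydrolase activity. Ndrg2 read 8.92, 9.17 and 9.10 in control and 8.91, 8.84 and 8.85 with CHD5 shRNA at day 5, a separation of 0.01 between the nearest arrays. By day 9 it read 12.19, 13.76 and 12.47 in control and 11.50, 11.47 and 10.88 with CHD5 shRNA. The value of 13.76 is from the dim array and decides the size of the difference. The difference was -1.52 with that array (SE 0.26, limma adjusted p 0.00325) and -1.07 without it (SE 0.14, adjusted p 7.55e-05). At day 12 the control arrays read 13.26, 13.33 and 13.35 and the others 11.95, 12.01 and 12.05, or 40.4% of control. The study also reported reduced Ndrg2 with CHD5 inhibition by quantitative PCR on other samples. Abhd1 read 6.65, 6.37 and 6.57 in control and 6.55, 6.51 and 6.64 with CHD5 shRNA at day 5, where the groups overlapped and 1 of the 6 arrays detected it. It then read 7.71, 7.51 and 7.82 against 7.23, 7.28 and 6.91 at day 9 (difference -0.55, SE 0.11, adjusted p 0.0102). At day 12 it read 8.23, 8.21 and 8.09 against 7.25, 7.06 and 7.15, and the CHD5 shRNA mean was 0.02 above that of day 9. Another probe for Abhd1 was detected on 0 of the 18 arrays and was not used.

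Add3 encodes gamma-adducin, which caps actin filaments and joins them to spectrin below the membrane. It read 6.94, 6.94 and 6.41 in control and 6.55, 6.34 and 6.42 with CHD5 shRNA at day 5, with overlap and with none of the latter arrays above background. The day 9 values were 8.06, 7.53 and 7.60 against 6.96, 7.05 and 6.58 (difference -0.87, SE 0.16, adjusted p 0.00482). At day 12 they were 8.55, 8.52 and 8.40 against 7.44, 7.19 and 7.34, or 44.6% of control. Bhlhb3 encodes the transcriptional repressor DEC2, which binds E-boxes such as the one in its own window above. The groups overlapped at day 5, with 6.86, 6.83 and 6.96 in control and 7.01, 6.83 and 6.89 with CHD5 shRNA. At day 9 it read 8.35, 7.97 and 8.27 against 7.51, 7.60 and 7.50, a difference of -0.66 (SE 0.10, adjusted p 0.00086). At day 12 it read 8.74, 8.70 and 8.66 against 7.99, 7.95 and 8.0.

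None of the 10 genes was called by limma at day 5, while 0.126% of all probes were called lower. At an unadjusted p under 0.05, Htra1 was lower, as were 3.22% of all probes, and Dgka was higher. The median difference was -0.15, against 0.01 over all probes. The groups did not overlap in 4 genes that were lower and in Dgka, which was higher, while 5.8% and 5.15% of all probes were separated that way. The 4 were Htra1, Ndrg2, S100b and Cldn10_predicted, the last not detected on that day. At day 9 all 10 were called lower, against 2.25% of all probes, and in all 10 the groups did not overlap, against 8.16%. Edg2, counted in both, was not detected with CHD5 shRNA at day 9. The median difference was -0.72, against -0.02 over all probes. Leaving out the dim control array, 9 of the 10 were called lower, Dgka being the exception, and 6.6% of all probes. Without that array the differences of those not given above, other than Edg2, were -1.58 for Htra1, -0.69 for S100b, -0.99 for Add3, -0.65 for Abhd1, -0.79 for Bhlhb3 and -0.61 for Fgfr3. Leaving out CHD5 shRNA replicate c of day 9, 4 were called, against 0.505% of all probes. These were Htra1 (-1.35), Ndrg2 (-1.33), S100b (-0.79) and Bhlhb3 (-0.64). When only the 6 day 9 arrays were fitted, none of the 10 nor any other probe was called lower (adjusted p 0.153 to 0.416 for the 10), and 3 against 3 arrays cannot give an exact permutation p below 0.1. At day 12 the differences ran from -1.81 (Htra1, first among 11079 probes ordered from the lowest) to -0.44 (Dgka, rank 383), with a median of -1.09. No limit for the choice of genes was stated. Of all probes 3.24% were called lower at day 12 and 18.3% were lower without overlap, and nothing is read from the 10 genes there.

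**Figure D2:**
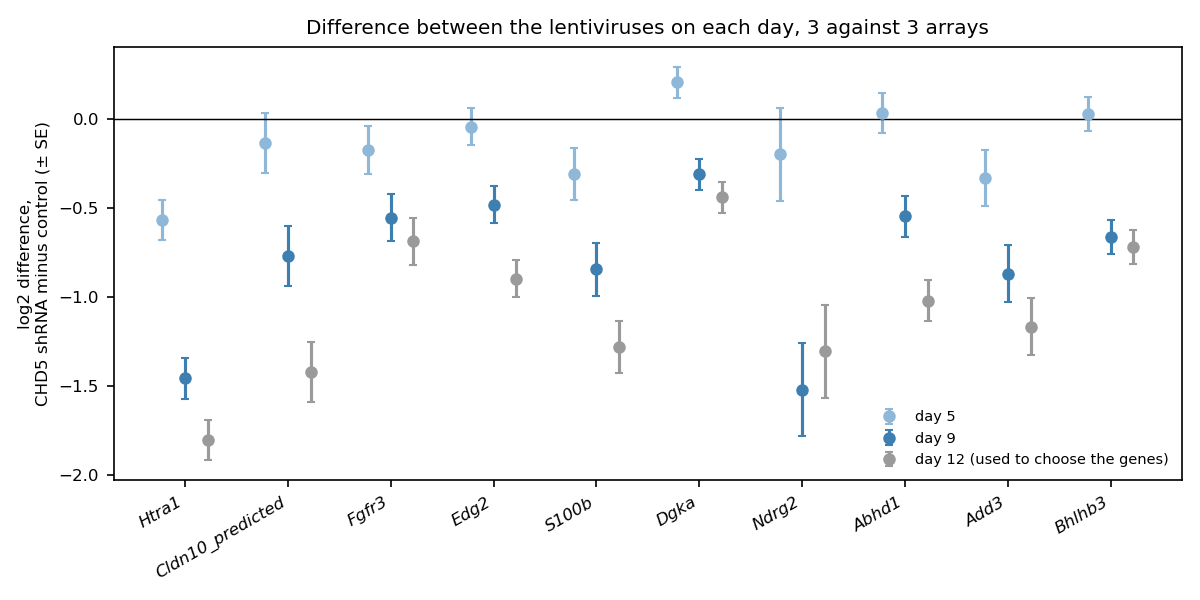
Log2 difference between CHD5 shRNA and control (vertical axis) for each of the 10 genes at days 5, 9 and 12, with bars of 1 standard error from the fit (3 against 3 arrays). Day 12 values, in gray, chose the genes. At day 9 the differences run from -1.52 (Ndrg2) to -0.31 (Dgka). Cldn10_predicted was not above background at day 5, nor were Abhd1 and Add3 with CHD5 shRNA at day 5, nor Edg2 with CHD5 shRNA at day 9.

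Whether the difference itself grew from day 5 to day 9 was tested as an interaction. It was more negative at day 9 in all 10 genes, from -0.38 in Fgfr3 to -1.33 in Ndrg2, with a median of -0.56. These include Cldn10_predicted, which was below background at day 5, and Edg2, which was below it with CHD5 shRNA at day 9. Abhd1 and Add3 were not detected with CHD5 shRNA at day 5 either. Where a probe was at background at day 5, the difference of that day may be understated and the change since then overstated. None was called (limma adjusted p 0.197 to 0.701), and neither was any of the 11079 probes. At an unadjusted p under 0.05, 9 of the 10 passed, all but Fgfr3, against 7.3% of all probes. Without the dim control array 5 of the 10 were called, against 0.533% of all probes called lower. These were Bhlhb3 (-0.82, adjusted p 0.00164), Htra1 (-1.0, adjusted p 0.00573), Cldn10_predicted (-0.91, adjusted p 0.0199), Ndrg2 (-0.87, adjusted p 0.037) and Abhd1 (-0.68, adjusted p 0.0409). Of these, Cldn10_predicted and Abhd1 carry the limit just given for probes at background at day 5. With all arrays, quantile normalization called 2 of the 10 (0.0632% of all probes) and neqc, which subtracts background, called 1 (0.0361%).

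All 10 genes rose as control cultures aged. From day 5 to day 9 each was called higher (limma adjusted p 3.57e-10 to 0.014), against 9.18% of all probes, with no overlap in any, against 10.9%. The rises were 3.74 for Ndrg2 (3.34 without the dim array), 2.82 for S100b, 2.47 for Htra1, 1.53 for Cldn10_predicted, 1.32 for Bhlhb3, 1.15 for Abhd1, 0.97 for Add3, 0.91 for Fgfr3, 0.71 for Dgka and 0.39 for Edg2. For Cldn10_predicted, undetected at day 5, the rise was at least 2.36-fold. With CHD5 shRNA, 7 of the 10 were called higher over the same days, against 4.61% of all probes. Ndrg2 rose by 2.41, S100b by 2.28 and Htra1 by 1.58 in these cultures. Cldn10_predicted (at least 1.33-fold), Bhlhb3 (0.62), Abhd1 (at least 1.42-fold) and Fgfr3 (0.53) rose too. The 3 that did not pass were Add3 (adjusted p 0.104), Dgka (0.19, adjusted p 0.194) and Edg2 (adjusted p 0.784), the last not detected with CHD5 shRNA at day 9. The test between the cultures is the interaction above, in which these 3 were not called.

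**Figure D3:**
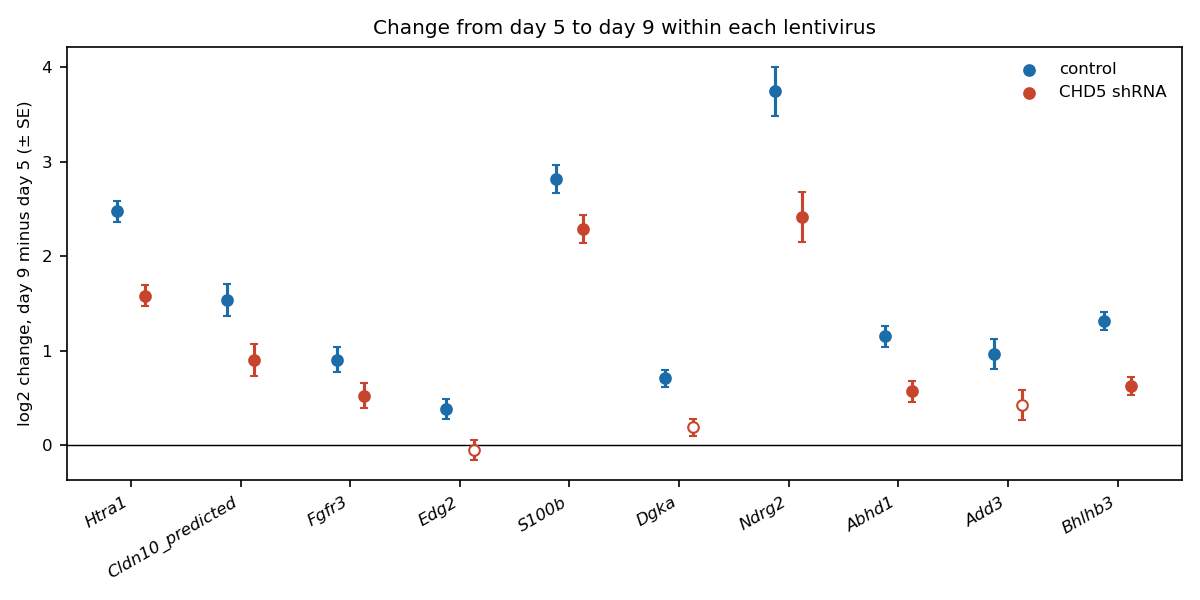
Log2 change from day 5 to day 9 (vertical axis, with bars of 1 standard error) of each of the 10 genes, in control cultures (blue) and with CHD5 shRNA (red). Filled points have a limma adjusted p under 0.05. All 10 blue points are filled and lie above the red point of the same gene, and 3 red points (Edg2, Dgka and Add3) are open.

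Between day 9 and day 12, described without a test since day 12 chose the genes, the 10 fell into different courses. Edg2 rose in control by 1.27 in this interval, after 0.39 before it. Cldn10_predicted rose by a further 1.38 and Htra1 by 1.16. Dgka moved by 0.03 in control, and its difference went from -0.31 to -0.44. The difference widened from -0.77 to -1.42 for Cldn10_predicted, from -0.55 to -1.02 for Abhd1 and from -0.84 to -1.28 for S100b. Without the dim array these went from -1.05 to -1.45, from -0.65 to -1.04 and from -0.69 to -1.31. The direction turned with that array for Bhlhb3, from -0.66 to -0.72 with it and from -0.79 to -0.74 without it. It turned for Ndrg2 too, from -1.52 to -1.31 with it and from -1.07 to -1.34 without it. The day 12 difference of Edg2 was -0.90, and its day 9 difference is known as a bound alone. From day 5 to day 12 the CHD5 shRNA cultures still gained 3.14 for Ndrg2, 2.67 for S100b and 2.40 for Htra1, against 4.25, 3.64 and 3.63 in control. In all 10 genes the CHD5 shRNA mean at day 12 was above that at day 5, with the smallest gain, 0.10, in Dgka.

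Across the 18 arrays each of the 10 genes followed the mean of the other 9, with Pearson's r from 0.82 for Edg2 to 0.99 for Htra1. These arrays share the rise with age and the difference between the viruses, so r is given as a description. Among the 10 other genes most like the mean of the 10 were Agt, Thnsl2, Acsbg1, Slc38a3, Serpine2, Aox1, Accn4, S100a16_predicted and Apoc1 (r = 0.98). Acsbg1 encodes an acyl-CoA synthetase, Agt angiotensinogen and Slc38a3 a glutamine transporter. All 10 were called lower at day 9, from -1.01 for Acsbg1 (adjusted p 0.000355) to -0.39 for Accn4 (adjusted p 0.0182), and they were selected partly on those arrays.

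Markers of astrocytes were lower too. Of 35 listed markers, none of them among the 10 genes, 32 were kept, and 22 of these were detected on all 18 arrays. At day 9, 14 of the 32 were called lower and none higher, against 2.25% of all probes called lower, with a median of -0.70 against -0.02 over all probes. Furthest below control with all arrays were Apoe, a lipid carrier (-1.81, SE 0.31, limma adjusted p 0.00337), and Gja1, a gap junction protein (-1.29, SE 0.22, adjusted p 0.00337). Gfap, the intermediate filament of astrocytes, came next (-1.24, SE 0.22, adjusted p 0.00355). The called markers nearest to control were Slc4a4, a bicarbonate transporter (-0.64), Ppp1r3c, a glycogen regulator (-0.67), and Vim, vimentin (-0.73). These sizes and their order depended on the dim array. Without it the lowest were Gfap (-1.30), Apoe (-1.27) and Nfia (-1.25), and Gja1 had -0.91. Slc4a4 then had -0.74, Ppp1r3c -0.87 and Vim -0.71, and the called marker nearest to control was Sparcl1 (-0.57). The astrocyte count was 17 without the dim array (6.6% of all probes), 7 without CHD5 shRNA replicate c of day 9 (0.505%), 1 with median centring (0.316%) and 0 with the day 9 arrays alone. At day 5 none of the 32 was called (median -0.22), or 4 without the dim array, against 1.02% of all probes. At day 12, 16 were called lower (median -0.53), against 3.24% of all probes. Gfap and Vim, lower at day 9, differed by -0.43 (adjusted p 0.357) and -0.0029 (adjusted p 0.999) at day 12. Like the 10 genes, 22 of the 32 markers were called higher in control at day 9 than at day 5, against 9.18% of all probes. Nfib, a transcription factor, fell over these days (-0.74, adjusted p 0.0496), as did 12.8% of all probes.

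The summed linear level of the 32 astrocyte markers lay between 53785 and 68898 in control and between 50382 and 57260 with CHD5 shRNA at day 5. It was 99589 to 139372 in the 2 control arrays of day 9 other than the dim one and 98428 to 116016 with CHD5 shRNA, and 150383 to 172183 against 113101 to 122194 at day 12. The part of the number of astrocytes in the results for the 10 genes was not tested. Of 20 kept neuron markers, none was called lower at day 9 and 3 were called higher, against 3.65% of all probes. The median was 0.08, and 9 of the 20 had differences below 0, such as Gap43 (-0.45, adjusted p 0.63) and Stmn2 (-0.39, adjusted p 0.584). These 2 depended on the dim array. Without it Gap43 had 0.52 (limma adjusted p 0.0615) and Stmn2 0.35 (adjusted p 0.142), and the median of the 20 was 0.13. Gad1 (-0.07) and Gad2 (-0.14) were below 0 without it. With all arrays the called genes were Uchl1 (0.94, SE 0.14, adjusted p 0.000887), Slc17a6 (0.58, adjusted p 0.0354) and Tubb3 (0.55, adjusted p 0.0175). The same 3 were called without the dim array, against 4.02% of all probes called higher. Without other single arrays 1 to 4 were called (1 without CHD5 shRNA replicate a or c of day 9). The count was 1 with median centring or no detection filter, and 0 with the day 9 arrays alone. The shares of all probes called higher in these settings are not given here, so nothing is read from how these counts vary. The summed level of the 20 was 70590 to 78187 with CHD5 shRNA against 54750 to 63350 in those 2 control arrays. All 20 neuron markers on the array were kept, and 15 were detected on all 18 arrays.

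Of 13 kept markers of the oligodendrocyte lineage, 3 were called lower at day 9, against 2.25% of all probes. They included Cnp, a myelin gene (-0.58, adjusted p 0.0281), and Enpp6, which was detected on 1 of 18 arrays. The precursor genes Pdgfra (-0.15), Cspg4 (0.29) and Sox10 (0.27) were not called, values that were singled out after they were seen. Without the dim array 5 of the 13 were called lower, against 6.6% of all probes, Pdgfra (-0.30) among them. Cspg4 was then called higher (0.43), against 4.02%. Only 2 of 13 microglia markers and 2 of 9 endothelial and pericyte markers on the array were kept, and none was called. Among 6 kept fibroblast markers, Col1a2 (-0.98, limma adjusted p 0.0325) and Dcn (-0.55, adjusted p 0.00355) were lower, against 2.25% of all probes. Thy1, also a neuronal surface protein, was higher (0.62, adjusted p 0.00421), against 3.65%. None of the 12 kept proliferation markers was called by limma on any of the 3 days, with medians of -0.27 at day 5, -0.07 at day 9 and -0.16 at day 12. Of the 12, 11 had differences below 0 at day 5, 8 at day 9 and 11 at day 12. Without the dim array 4 were called lower at day 5, against 1.02% of all probes, and 1, Rrm2, at day 9 (-0.46), against 6.6%. Quantile normalization called 3 lower at day 5, against 0.614%.

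Among paralogs of the 10 genes, the calls at day 9 with all arrays were in the S100 family. Of 7 kept S100 genes other than S100b, 4 were called lower at day 9, with and without the dim array and against 2.25% of all probes, S100a13 (-0.99, SE 0.12, adjusted p 0.000327), S100a16 (-0.98, SE 0.15, adjusted p 0.00152), S100a1 (-0.87, adjusted p 0.00482) and S100a4 (-0.42, adjusted p 0.0259). None of the 25 kept paralogs of the other genes was called at day 9 with all arrays. Without the dim array Abhd3 (-0.88, limma adjusted p 0.00234) and Lpar4 (-0.48, adjusted p 0.00911) were called lower, against 6.6% of all probes. Ndrg4 was then called higher (0.51, adjusted p 0.00494), against 4.02%. With all arrays Abhd4 (-0.82, limma adjusted p 0.134) and Abhd3 (-0.64, adjusted p 0.0563) had lower values than Abhd1, and the 8 kept ABHD genes reached up to 0.48. Without the dim array Abhd4 (-0.27) was above Abhd1 (-0.65), and Abhd3 was below it. At day 12 Abhd3 (-0.93), Lpar4 (-0.62) and Fgfrl1 (-0.50) were called lower, against 3.24% of all probes. At day 9 with all arrays the other NDRG genes, Ndrg1 and Ndrg4, had differences of 0.25 and 0.25, and the other adducins, Add1 and Add2, 0.40 and 0.32. Among the FGF receptors Fgfr2 had -0.26, Fgfr4 -0.16 and Fgfrl1 -0.07, with Fgfr2 and Fgfr4 detected on 3 and 1 of 18 arrays. The paralog of Bhlhb3, Bhlhb2, had 0.04, the 5 kept claudins lay between -0.28 and 0.19, and Dgke and Dgkz had 0.11 and 0.25. Without the dim array the sign turned for Bhlhb2 (-0.22) and Fgfr4 (0.02). It stayed for Ndrg1, Ndrg4, Add1, Add2, Fgfr2, Fgfrl1, Dgke and Dgkz. The differences between each gene and its paralogs were not tested.

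Few genes of the pathways around the receptors and enzymes were called at day 9. Of 11 kept ligands, targets and regulators of FGF signalling none was called at day 9 with all arrays. Without the dim array Dusp6 (-0.82), Fgf13 (-0.75) and Etv4 (-0.33) were called lower, against 6.6% of all probes. At day 12 Etv4, an FGF-induced transcription factor, was lower (-0.58, limma adjusted p 0.00309), against 3.24% of all probes. Of 16 genes of lysophosphatidic acid and diacylglycerol metabolism, Ppap2b was called lower at day 9 (-0.75, SE 0.12, adjusted p 0.00166), against 2.25% of all probes. Without the dim array Enpp2 was called lower too (-0.38), against 6.6%. Ppap2b encodes a phosphatase that removes phosphate from lysophosphatidic and phosphatidic acid, the ligand of Edg2 and the product of Dgka. Bhlhb3 acts beside the clock as a repressor of its targets. Of 12 other clock genes, Nfil3 was called higher at day 9 (0.76, SE 0.20, limma adjusted p 0.0294), against 3.65% of all probes. Without the dim array Cry1 was also called and was lower (-0.42), against 6.6%. With all arrays the other clock genes, such as Per1 (0.42, adjusted p 0.156) and Arntl (0.00), were not called.

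**Figure D4:**
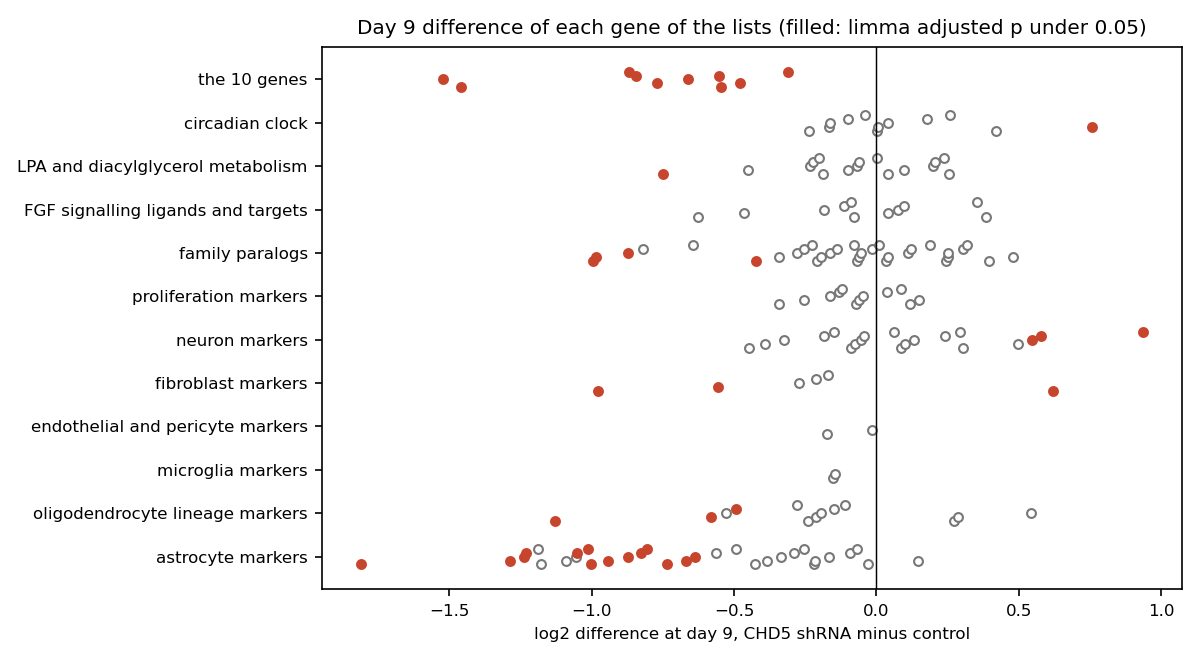
Log2 difference between CHD5 shRNA and control at day 9 (horizontal axis) of each kept gene, by list (rows), with the 10 genes on top. Filled red points have a limma adjusted p under 0.05. The 14 filled astrocyte markers all lie below 0 and the 3 filled neuron markers above 0.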

How the data were processed

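The deposited table holds, per the file headers, the mean signal intensity of each probe on each array, extracted by the authors with GenomeStudio 1.1.1 without normalization or background subtraction, and a detection p-value that the authors' software computed against negative control beads. Since background was not subtracted, differences of dim probes are understated, and 3 arrays per group limit the precision. Probes were kept when any of the 18 detection p-values was 0.02 or lower. The log2 intensities were converted to Z-scores per array, as in the study's methods, and put back on a log2 scale with the average SD and mean over arrays. limma 3.58.1 in R 4.3.3 (lmFit and eBayes) was fitted to 6 groups, with Benjamini-Hochberg adjustment within a contrast, and the procedure was tested on simulated data. The 10 genes, the lists and the naming rules were chosen with earlier results of these data known. Named are all 10 genes, of each list every gene called at day 9 (above 6, those with the 3 lowest and 3 highest differences), and the 10 most alike probes. Current symbols came from RefSeq for 9729 kept probes. Across probes, deviations of same-letter arrays correlated at day 5 (0.27, 0.17 and 0.38), less evenly at day 9 (0.43, 0.15 and -0.20), and little at day 12 (0.05, 0.15 and 0.01). The labels name no shared batch. Some genes of these lists are not reported here by name.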

Additional observations from a re-analysis of the deposited data

Results flagged for a closer look

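Dgka was the single gene of the 10 whose arrays separated in opposite directions on different days. Its CHD5 shRNA arrays were all above the control arrays at day 5 (difference 0.21, limma adjusted p 0.769) and all below them at day 9 (difference -0.31). Of all probes 5.15% were separated upward at day 5 and 8.16% downward at day 9. The share of probes that did both is not given here. The change of 0.52 between these days, tested as an interaction, was not called (limma adjusted p 0.262, unadjusted p 0.000637), nor was it without the dim day 9 control array (adjusted p 0.0656). Groups of 3 arrays are too small for a test of single arrays against their group.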

How the results depend on the processing

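At day 9 the number of the 10 genes called lower was 10 (2.25% of all probes). It was 5 with median centring (0.316% of all probes), 5 with no detection filter (0.422%) and 0 with only the arrays of that day (0 probes). Omitting single arrays gave 4 to 10, the 4 being without CHD5 shRNA replicate c of day 9 (0.505%). The day 5 count of 0 (0.126% of all probes) became 1, always Htra1, in several settings. These were quantile normalization (0.614%), neqc (0.415%), detection on all 3 arrays of a group (0.307%) and the mean of both runs (0.181%). A rule with a part of the methods' criteria (Z-ratio beyond 1.5, unadjusted p under 0.05, without their FDR and signal limits) also gave 1 (3.1%). Leaving out arrays gave 0 to 1 (0.0361% to 1.02%). The count for the change of the difference was 0, and 2 with quantile normalization (0.0632%), 1 with neqc (0.0361%), 9 with the Z-ratio and unadjusted p (2.14%) and 0 to 5 without single arrays (0% to 0.533%). The 7 genes rising with CHD5 shRNA (4.61% of all probes) were 4 with no detection filter (1.23%) and 6 to 8 without single arrays (2.75% to 11.4%). The 10 rising in control were 9 to 10 throughout (2.77% to 23.6%). Astrocyte markers lower at day 9 were 14 (2.25%), 1 with median centring (0.316%) and 0 with only that day's arrays (0 probes). Without single arrays they were 7 (0.505%) to 19 (4.72%). At day 12 they were 16 (3.24%), 9 with median centring and 11 to 20 without single arrays. The shares of all probes in these other day 12 settings are not given here. With a replicate block within the day the day 9 count was 9 (2.31%, Dgka lost, limma adjusted p 0.0629) and the day 5 count 0 (0.0542%). With a replicate block by letter they were 10 (2.5%) and 0 (0.162%). The block within a day could not be fitted to changes between days. The day 9 differences of the 10 genes were negative under all alternatives run, and of 280 such values 44 lost the call, 19 of them of Dgka. Day 5 signs turned where differences were near 0. Abhd1 (0.04) gave -0.00092 with array weights and -0.044 to 0.096 without single arrays, Edg2 (-0.04) gave -0.13 to 0.024 without single arrays, and Bhlhb3 (0.03) gave -0.00297 with array weights and -0.018 to 0.068 without single arrays. Under neqc, which subtracts background, 6 of the 10 day 12 differences were larger by more than the SD between replicates. Averaging kept probes of a gene was not run, since no gene of the 10 had a further kept probe. Apart from the causes built into a setting, such as fewer arrays, the cause was not tested.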
